A study of Mus musculus with 2 samples.

Results

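The collagen genes were described here across the cells of the mouse vagus nerve ganglia. A gene was taken as a member when its symbol was Col, a number, the letter a and a number, with nothing after it. This gave 44 genes, *Col1a1* to *Col28a1*, of the 32286 rows of the features file, and all 44 were among the 26032 genes with at least 1 unique molecular identifier (UMI, which stands for a captured RNA molecule). Together they held 58894 of 44965030 UMIs, or 0.131%. The nuclei came from Rosa26-floxed-STOP-Cas9-eGFP mice of 8 to 9 weeks of age when purchased, kept on standard chow, 4 weeks after AAVrg-Cre, a retrograde virus that carries Cre, had been injected into the liver. Both groups carried the same alleles and the same virus, and no mice without the virus were used here. The female library was made from 1 pool of 14 ganglia of 7 mice and the male library from 1 pool of 16 ganglia of 8 mice. Because there was 1 library of each sex, no difference was tested for significance, and sex and library cannot be told apart.

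Collagens are proteins of the extracellular matrix whose chains wind into triple helices. Fibrillar collagens form the ropes that give connective tissue its strength, collagens with interrupted helices (FACIT) lie on those fibrils, and type IV collagens form the sheet of basement membranes. In a peripheral nerve, fibroblasts lie outside the fascicles in the epineurium and among the axons in the endoneurium, perineurial cells wrap the fascicles, and each Schwann cell and satellite glial cell rests on a basement membrane that it helps to make. Other families make beaded filaments, hexagonal lattices or membrane-bound collagens, and the multiplexins sit at basement membranes.

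A level below is the number of UMIs of a gene per 10000 UMIs of all genes in a class of nuclei, and intervals are 95% exact Poisson intervals of levels or exact conditional binomial intervals of log2 ratios, which cover counting error only. The female library held 3791 nuclei with a median of 2381 UMIs and the male library 4923 nuclei with a median of 2658. *Xist*, a transcript of the inactive X chromosome, had 13424 female and 7 male UMIs, and 8 barcode sequences occurred in both. Nuclei were clustered without the collagen genes, so that no collagen helped to define a class, and classes were named from marker genes. There were 17 classes to compare, and they passed their markers unevenly. The endothelial cell-like, mural cell-like, macrophage-like and adipocyte-like classes passed 9 or 10 of 10, 10 of 11, 9 of 9 and 7 of 7 of their markers, and the neuron-like class 7 of 12. Some also passed markers of other cells. Adipocyte-like nuclei passed 9 of 10 endothelial markers and *Adgrl4*-high endothelial cell-like nuclei 9 of 11 mural ones. *Fabp7*-high satellite glia-like nuclei passed 5 of 8 satellite glia markers, but 11 of 12 of neurons and 6 of 6 of non-myelinating Schwann cells. The 515 *Slc47a1*-high nuclei passed 3 of 7 markers of barrier fibroblasts (those of nerve and brain coverings), 4 of 9 fibroblast and 4 of 7 perineurial cell markers, and were therefore given no cell type name. They were counted among the fibroblast kinds, though the stromal nuclei they came from also gave the vessel and adipocyte-like classes. In the larger of their 2 clusters (336 nuclei), sympathetic neuron markers scored highest (5 of 5 passed), before those of barrier fibroblasts (2 of 7). The 335 *Cdh19*-high glia were not named further because markers of several kinds of glia were high in them together.

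The fibroblast kinds had the highest collagen levels and the neurons the lowest. All 44 genes together had 38.9 UMIs per 10000 in the 2133 nuclei of fibroblast kinds (95% interval 38.4 to 39.5), 22.4 in 2632 glia, 17.8 in 466 vessel nuclei, 12.8 in 110 adipocyte-like, 6.66 in 275 macrophage-like and 5.29 in 2493 neuron-like nuclei. By class and over both libraries the summed level was highest in epineurial fibroblast-like nuclei, with 60.1 (57.4 to 62.9), and in *Slc47a1*-high nuclei, with 59.6 (58.4 to 60.9), and these intervals overlapped. Within each library, however, the *Slc47a1*-high nuclei were highest. They had 75.1 (72.8 to 77.6) against 65.6 (62.2 to 69.2) in epineurial fibroblast-like nuclei in the female library. In the male library the levels were 51.4 (50 to 52.9) and 48.0 (43.7 to 52.5), with overlapping intervals. Endoneurial fibroblast-like nuclei followed with 48.5 (46.8 to 50.3). In bulk sums of a class, fewer nuclei that make a collagen and less RNA of it per nucleus cannot be told apart. Of the 44 genes, 25 were highest in a fibroblast kind (6 of them in *Slc47a1*-high nuclei), 10 in a vessel class, 7 in glia, 2 in adipocyte-like nuclei and none in neuron-like or macrophage-like nuclei. These counts have no share of all genes beside them, and 6 of the 17 classes are fibroblast kinds. Some highest levels rest on 1 to 3 UMIs, as for *Col6a4*, *Col7a1*, *Col9a1*, *Col11a2* and *Col17a1*. For 22 of the 44 the highest class was the same in both libraries.

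**Figure D1:**
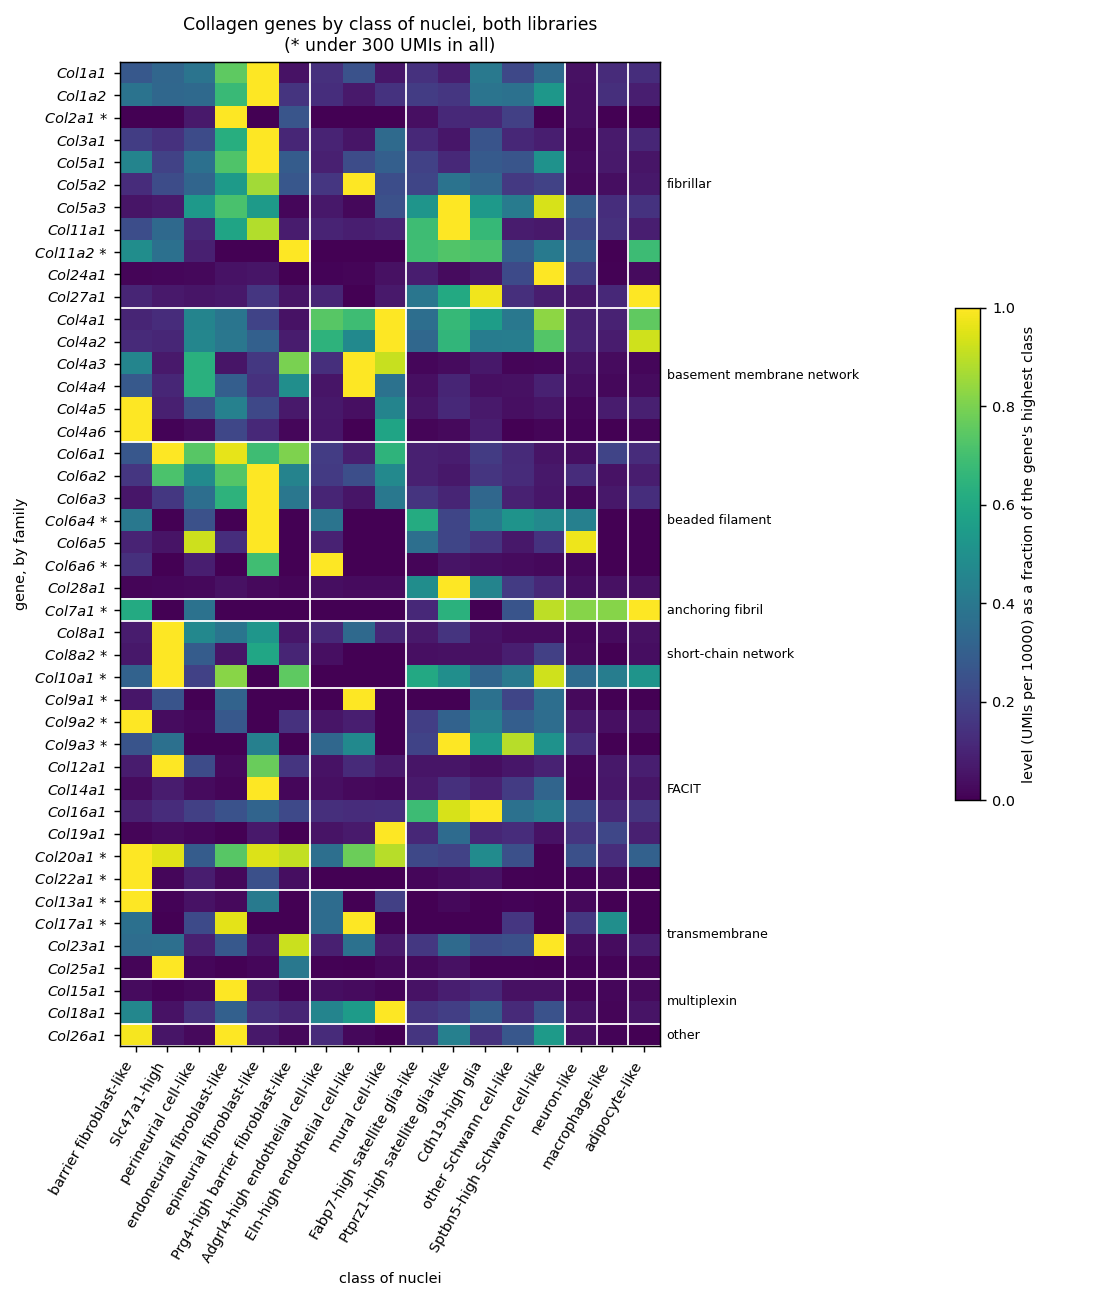
Level of each of the 44 collagen genes (rows, by family) in the 17 classes of nuclei (columns) over both libraries, as a fraction of the gene's own highest class, so that colours cannot be compared between genes, with an asterisk for genes under 300 UMIs. White lines part the families and the groups of classes, and 25 rows have their brightest cell in one of the 6 fibroblast columns on the left, some of these on 1 to 3 UMIs.

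A gene was called to a group when its level was at least 2 times that of every other group in each library, with at least 10 UMIs in that group in each library. By this rule 10 of the 44 collagens (22.7%) were called to fibroblast kinds, against 1.26% of all 26032 genes with a UMI and 1.81% of those with at least 100 UMIs. These were *Col4a5*, *Col4a6*, *Col6a1*, *Col6a3*, *Col8a1*, *Col8a2*, *Col12a1*, *Col15a1*, *Col22a1* and *Col25a1*. The glia had 3 (*Col5a3*, *Col16a1* and *Col28a1*), where the share of all genes was 1.13% and of those with at least 100 UMIs 1.66%. The vessels had 2 (*Col6a6* and *Col18a1*), against 0.922% of all genes and 1.38% of those with at least 100 UMIs. Adipocyte-like nuclei had 1 (*Col27a1*), against 1.04% and 1.73%, and macrophage-like nuclei none, against 1.32% and 1.89%. The neurons had 1 (*Col6a5*), a share of members of 2.27% against 3.50% of all genes and 4.91% of those with at least 100 UMIs. The other 27 were called to no group, among them *Col1a1*, *Col1a2*, *Col3a1* and the pair *Col4a1* and *Col4a2*. When *Slc47a1*-high nuclei were made a group of their own, 4 genes rather than 10 were called to the remaining fibroblast kinds, and when every class of a group counted the same, 6 were.

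Among the fibrillar collagens, *Col1a1* and *Col1a2*, the chains of type I collagen, and *Col3a1*, the chain of type III, were highest in epineurial and next in endoneurial fibroblast-like nuclei in each library, and differed in the classes that followed. *Col3a1* had 12 UMIs per 10000 in female and 8.18 in male epineurial fibroblast-like nuclei, and 8.63 and 5.38 in endoneurial ones. Next came the mural cell-like nuclei of vessel walls, with 4.77 and 2.68, against 0.668 and 0.864 in macrophage-like nuclei. *Col1a2* had 8.79 and 6.21 in epineurial, 6.25 and 4.75 in endoneurial fibroblast-like nuclei. The next class was no fibroblast: the *Sptbn5*-high Schwann cell-like class had 4.04 in female and 4.43 in male nuclei, above the barrier fibroblast-like nuclei, with 3.35 and 2.81. *Col1a1* had 2.93 and 3.42 in epineurial and 2.58 and 2.12 in endoneurial fibroblast-like nuclei. Over both libraries the epineurial level exceeded the endoneurial one by 0.67 on the log2 scale for *Col3a1* (0.46 to 0.88), 0.56 for *Col1a2* (0.32 to 0.81) and 0.41 for *Col1a1* (0.02 to 0.80). The epineurial class held 103 female and 45 male nuclei and the endoneurial one 124 and 171. Like other values over both libraries, these ratios and intervals therefore also carry differences between the libraries. Over both libraries all 3 genes were lowest in neuron-like nuclei, with 0.214, 0.341 and 0.143 in the order *Col3a1*, *Col1a2* and *Col1a1*.

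Because introns were counted and a long gene can collect more UMIs, collagen levels were also set side by side between genes per length. Whether UMIs rose with gene length was not tested, and the division by itself raises short genes over long ones. Per kilobase of gene, *Col3a1* led in epineurial fibroblast-like nuclei, with a level of 0.283 per kb, before *Col1a2* with 0.217 and *Col1a1* with 0.183. In the male library alone *Col1a1* came before *Col1a2* there, with 0.203 and 0.169 per kb. The same 3 genes led in endoneurial fibroblast-like nuclei, with 0.178 for *Col3a1*, 0.147 for *Col1a2* and 0.138 for *Col1a1*, in the same order in each library. In *Slc47a1*-high nuclei *Col8a1* led with 0.112 per kb (0.146 in female and 0.0931 in male nuclei). In neuron-like nuclei the leading value over both libraries was 0.0110 per kb, for *Col5a3*, while in the female library *Col1a1* led with 0.0123.

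The chains of type V and type XI collagen, which are thought to start fibrils and limit their width, differed from one another. *Col5a2* was highest in *Eln*-high endothelial cell-like nuclei in the female library, with 9.24 (lower in the male, 4.66, where these were only 21 nuclei), and in epineurial fibroblast-like nuclei in the male library, with 5.49 (7.61 in the female). Among the vessel classes it was 4.72-fold above the next in the female and 2.55-fold in the male library. *Col5a1* had 2.22 and 0.932 in epineurial and 1.68 and 1.05 in endoneurial fibroblast-like nuclei. *Col5a3* was called to the glia, with 1.28 in female and 1.08 in male nuclei, 2.27-fold and 2.15-fold above the next group. Its highest classes were *Ptprz1*-high satellite glia-like nuclei, with 1.83 and 1.62, and *Sptbn5*-high Schwann cell-like nuclei, with 1.58 and 1.69, which did not differ beyond counting error (log2 difference 0.09, -0.18 to 0.36). Over both libraries *Col11a1* had its highest level in *Ptprz1*-high satellite glia-like nuclei as well, with 1.10 and 1.41, and its next in epineurial fibroblast-like nuclei, with 1.13 and 1.04. These 2 classes did not differ beyond counting error either (0.17 on the log2 scale, -0.36 to 0.75), and in the female library the epineurial one was highest.

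*Col24a1* and *Col27a1* encode the fibrillar collagens of types XXIV and XXVII. *Col24a1* had 2.51 in female and 3.23 in male *Sptbn5*-high Schwann cell-like nuclei, 3.71-fold and 5.26-fold above the next kind of glia, and 0.573 and 0.499 in neuron-like nuclei. There it had the most UMIs of all collagens in the female library, while in the male library *Col5a3* had 939 UMIs and *Col24a1* 934. In macrophage-like nuclei it had 1 UMI. After thinning each nucleus to 1000 UMIs, *Col24a1* was seen in 19.1% of *Sptbn5*-high Schwann cell-like nuclei (15.4% to 23.3%), 3.61% of neuron-like nuclei (2.91% to 4.42%) and 0 of 274 macrophage-like nuclei, which allows up to 1.09%. Before thinning the shares were 41.7%, 17.6% and 0.364%, at median depths of 2580, 6651 and 1802 UMIs. *Col27a1* was called to adipocyte-like nuclei, with 1.90 and 1.64, yet the *Cdh19*-high glia had 2.03 and 1.14. Over both libraries these 2 classes differed by 0.03 on the log2 scale (-0.38 to 0.43). The *Sptbn5*-high Schwann cell-like nuclei had 0.145 of *Col27a1*.

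The FACIT collagens differed in their highest class. *Col14a1*, whose product lies on fibrils of type I collagen, had 7.56 in female and 4.14 in male epineurial fibroblast-like nuclei, 11.2-fold and 10.4-fold above the next fibroblast kind. It was at 0.085 over both libraries in endoneurial ones, no higher than the 0.0948 of neuron-like nuclei. *Sptbn5*-high Schwann cell-like nuclei were its second class, with 2.32 and 1.88. After thinning, 36.1% of 147 epineurial fibroblast-like nuclei held a *Col14a1* UMI (28.3% to 44.4%), against 1.02% of endoneurial, 15.6% of *Sptbn5*-high Schwann cell-like and 4.38% of macrophage-like nuclei. These shares were 46.6%, 1.69%, 37.2% and 6.55% before thinning, at median depths of 2006.5, 1846, 2580 and 1802 UMIs. *Col12a1*, of the same family, was called to fibroblast kinds, with 1.58 and 1.29, 4.59-fold and 5.97-fold above the next group. It was highest in *Slc47a1*-high nuclei in the female library, with 4.73 (2.97 in the male), and in epineurial fibroblast-like nuclei in the male library, with 3.11 (2.60 in the female). Endoneurial fibroblast-like nuclei had 0.085 of it over both libraries.

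*Col16a1* was called to the glia, with 0.955 and 0.876, 2.95-fold and 2.85-fold above the neurons. Its levels were 1.39 and 1.44 in *Cdh19*-high glia, 1.47 and 1.15 in *Ptprz1*-high and 0.917 and 0.974 in *Fabp7*-high satellite glia-like nuclei, and the first 2 of these classes did not differ beyond counting error (0.09 on the log2 scale, -0.26 to 0.44). *Col22a1*, known from tissue junctions, had 0.803 in female and 0.801 in male barrier fibroblast-like nuclei, 5.66-fold and 2.58-fold above the next fibroblast kind. Most *Col19a1* UMIs of the compared classes came from neuron-like nuclei, with 64 female and 145 male UMIs, though at a level of only 0.0718 and 0.0775. Its highest level over both libraries was that of mural cell-like nuclei, with 0.857 in female and 0.122 in male nuclei, but on 7 UMIs and 1 UMI. In the granule cell-like nuclei, a class with cerebellar markers that held 11.9% of female and 0.488% of male nuclei and was not compared, *Col19a1* had 0.602 (98 UMIs).

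**Figure D2:**
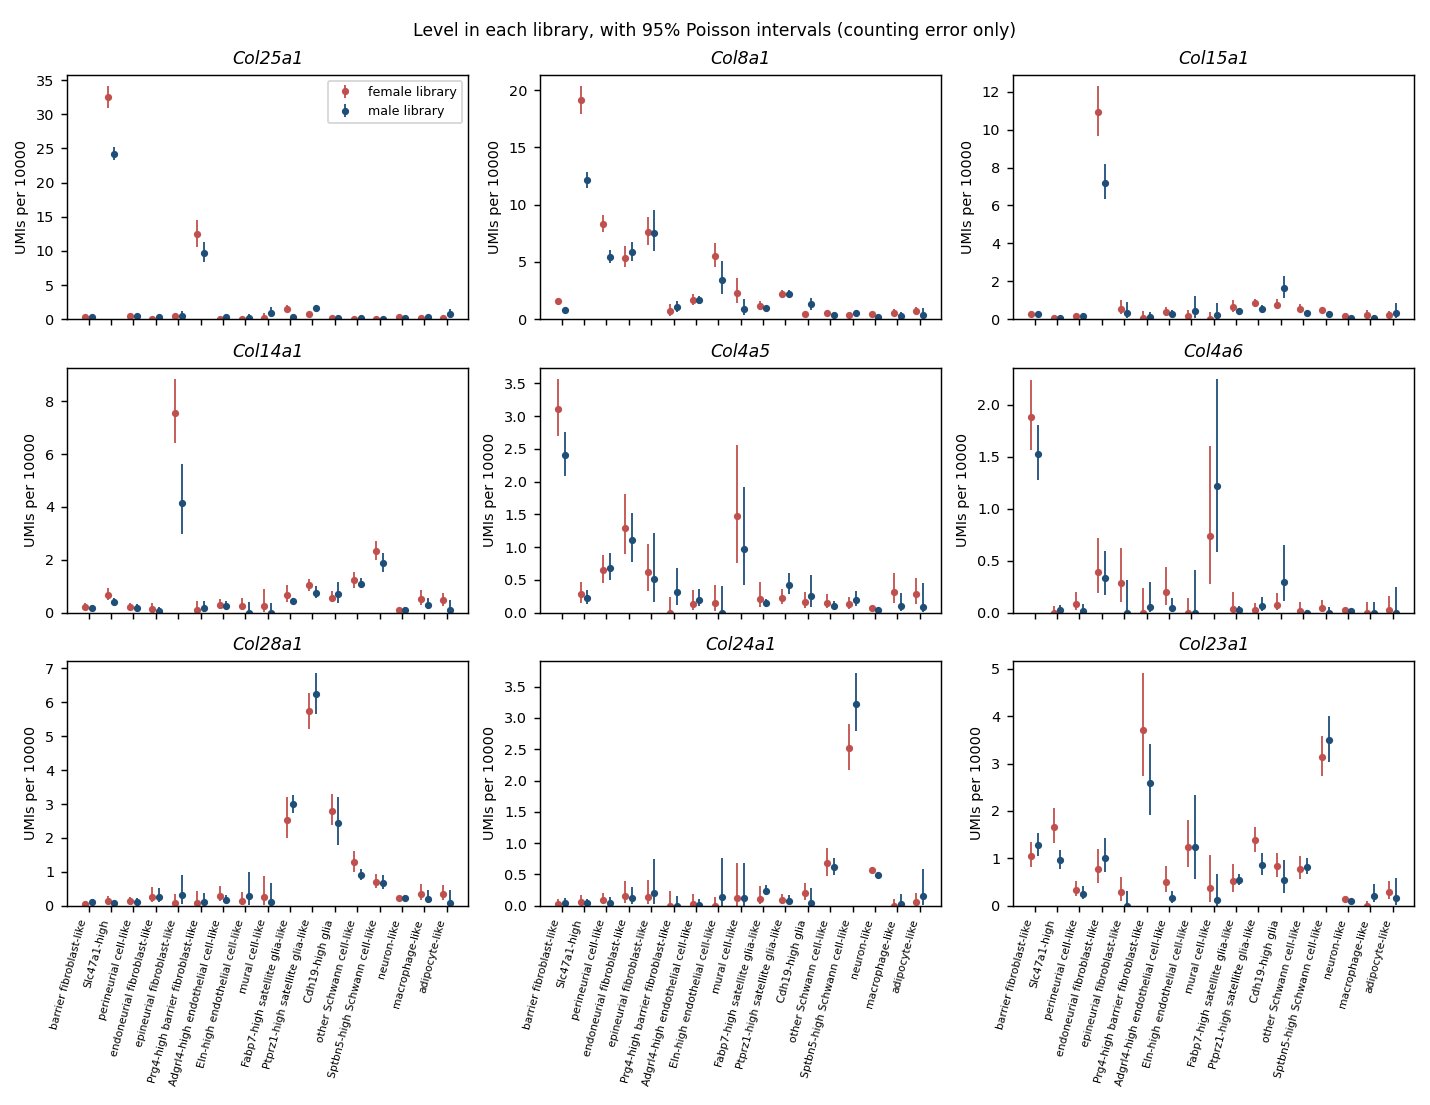
Level of 9 collagen genes (UMIs per 10000 UMIs, vertical axes from 0) in each of the 17 classes, in the female (red) and male (blue) library, with 95% Poisson intervals as bars. *Col25a1* stands out in *Slc47a1*-high nuclei (32.5 and 24.2), *Col15a1* in endoneurial (10.9 and 7.20) and *Col14a1* in epineurial fibroblast-like nuclei (7.56 and 4.14), and *Col28a1* in *Ptprz1*-high satellite glia-like nuclei (5.74 and 6.24).

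The 6 chains of type IV collagen are encoded by 3 pairs of neighbouring genes that point away from each other. The 3 pairs differed in their highest class over both libraries, while mural cell-like nuclei were first or second for 5 of the 6 genes. For *Col4a1*, *Col4a2* and *Col4a3* the highest class did not differ from the next beyond counting error. In the GENCODE annotation on mm10, *Col4a1* (chr8:11198423-11312826) and *Col4a2* (chr8:11312805-11449287) share 22 bases at their starts, *Col4a4* (chr1:82448423-82586849) and *Col4a3* (chr1:82586921-82722059) lie 71 bases apart, and *Col4a6* (chrX:141165403-141474076) and *Col4a5* (chrX:141475385-141689234) 1308 bases apart. The stretch in which the first pair starts is shown because both genes are read from it in opposite directions. It is chr8:11312801-11312830 on the plus strand of GRCm38.p6, from RefSeq, with the shared bases in capitals, which are untranslated first-exon sequence of both genes.
Col4a2 and Col4a1: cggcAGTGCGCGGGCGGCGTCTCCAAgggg
The stretches before the starts of the pair *Col4a6* and *Col4a5* are shown because these genes stood apart in barrier fibroblasts. They are chrX:141474077-141474326 (minus strand) and chrX:141475169-141475384 (plus strand), each 5′ to 3′ and free of annotated exons, with capitals on any of the letters CCAAT or GGGCGG, on either strand.
Col4a6: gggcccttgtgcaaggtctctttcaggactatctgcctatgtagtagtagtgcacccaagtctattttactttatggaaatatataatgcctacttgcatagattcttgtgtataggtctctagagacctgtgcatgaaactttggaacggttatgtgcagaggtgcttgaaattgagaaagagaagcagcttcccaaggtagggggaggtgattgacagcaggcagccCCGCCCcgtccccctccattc
Col4a5: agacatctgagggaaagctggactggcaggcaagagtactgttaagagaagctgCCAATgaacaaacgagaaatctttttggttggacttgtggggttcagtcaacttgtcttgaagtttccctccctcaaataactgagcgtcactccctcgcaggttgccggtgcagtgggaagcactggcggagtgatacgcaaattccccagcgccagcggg

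*Col4a1* and *Col4a2*, the chains of the basement membranes found in most tissues, were spread over vessels, glia and adipocytes. *Col4a1* had 2.57 in female and 2.56 in male mural cell-like nuclei, 2.36 and 1.84 in *Sptbn5*-high Schwann cell-like, 2.18 and 1.23 in adipocyte-like and 2.35 and 1.63 in *Adgrl4*-high endothelial cell-like nuclei. The highest class exceeded the next by 0.27 on the log2 scale (-0.23 to 0.74), so that their order was not resolved. *Col4a2* had 2.69 and 1.34 in mural cell-like, 2.10 and 1.23 in adipocyte-like and 1.27 and 1.72 in *Sptbn5*-high Schwann cell-like nuclei. Over the 17 classes the log2 levels of these 2 genes had a Pearson r of 0.97 and a Spearman rho of 0.98, and in the 16 classes with at least 20 UMIs the ratio of *Col4a1* to *Col4a2* UMIs ran from 0.842 to 1.85. These and the following correlations are over classes of the same 2 libraries and share their depth.

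*Col4a3* and *Col4a4*, chains best known from the kidney glomerulus, were both highest in *Eln*-high endothelial cell-like nuclei over both libraries. *Col4a4* had 2.33 in female and 2.06 in male *Eln*-high endothelial cell-like nuclei, 2.72-fold and 2.41-fold above the next vessel class, and 1.51 and 1.37 in perineurial cell-like nuclei. *Col4a3* had 1.29 and 0.959 in *Eln*-high endothelial cell-like (on 27 and 7 UMIs), 0.979 and 1.22 in mural cell-like and 0.898 and 0.638 in perineurial cell-like nuclei. Its first 2 classes did not differ beyond counting error over both libraries (0.13 on the log2 scale, -0.74 to 1.04). The pair was lower in glia, with *Col4a3* at 0.0229 and *Col4a4* at 0.207 in *Sptbn5*-high Schwann cell-like nuclei. The correlation of the pair over classes was 0.87 (Spearman 0.77). Their ratio was less even than that of the first pair, from 0.100 to 1.30 over 13 classes.

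*Col4a5* and *Col4a6* were both called to fibroblast kinds and, within these, to the barrier fibroblast-like nuclei. *Col4a5* had 3.11 in female and 2.40 in male barrier fibroblast-like nuclei, 2.41-fold and 2.17-fold above the next fibroblast kind, which was endoneurial, with 1.29 and 1.11. *Col4a6* had 1.88 and 1.52 in barrier fibroblast-like nuclei, 4.81-fold and 4.63-fold above the next kind. Over both libraries both had their second level in mural cell-like nuclei, with 1.47 and 0.975 for *Col4a5* and 0.735 and 1.22 for *Col4a6*, on 20 and 16 UMIs, though in the male library *Col4a5* was higher in endoneurial fibroblast-like nuclei. *Col4a6* had no UMI in 275 macrophage-like nuclei, which held 573772 UMIs. Perineurial cell-like nuclei had *Col4a5* at 0.644 and 0.683 but *Col4a6* at only 0.0847 and 0.0152, and over 13 classes the ratio of *Col4a5* to *Col4a6* UMIs ran from 1.25 to 20.

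**Figure D3:**
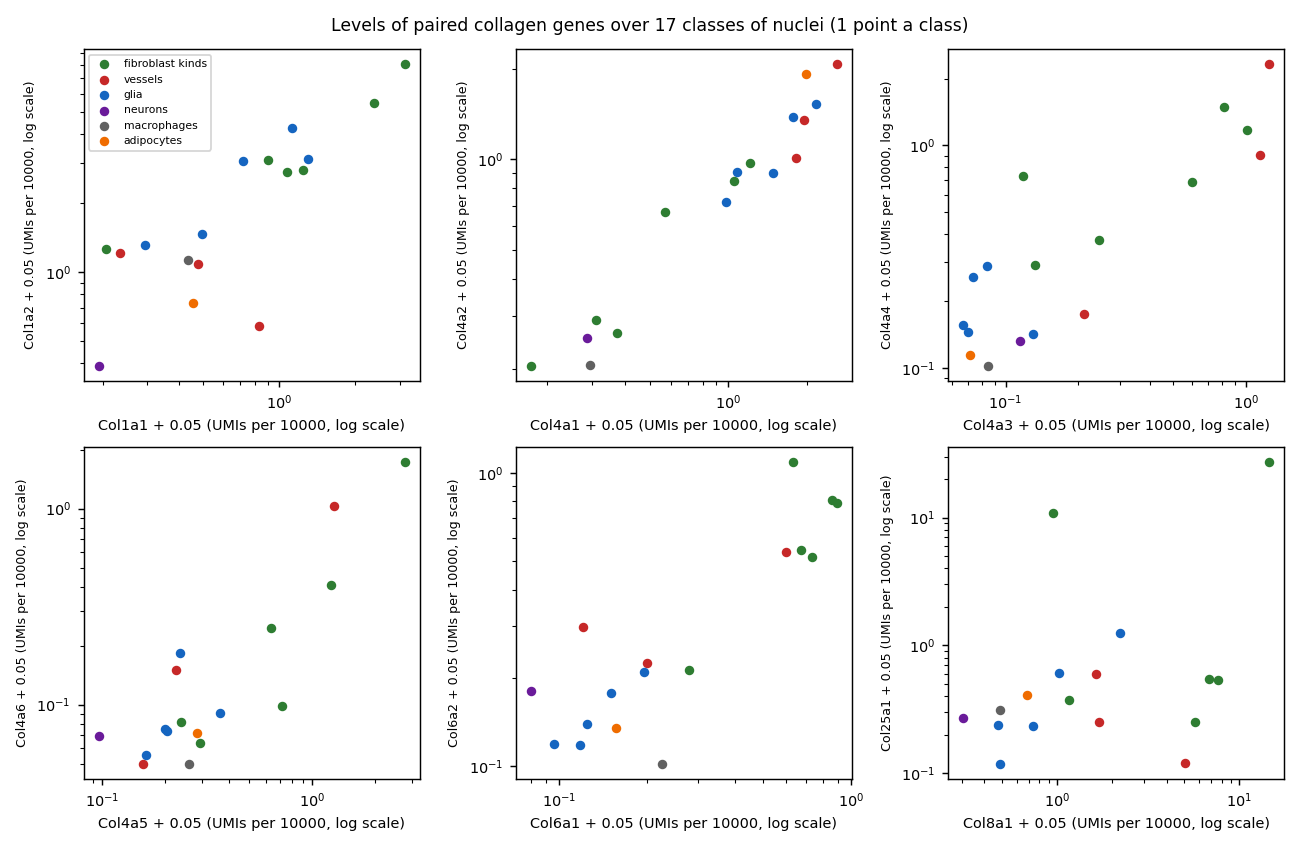
Levels of 6 pairs of collagen genes over the 17 classes of nuclei, with 1 point for each class, both axes in UMIs per 10000 on a log scale after 0.05 was added, and colours for the groups of classes. The points of *Col4a1* and *Col4a2* lie close to a line (r = 0.97), those of *Col4a3* and *Col4a4* and of *Col4a5* and *Col4a6* less so (both r = 0.87), and those of *Col8a1* and *Col25a1* are scattered (r = 0.38).

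Type VI collagen, a beaded filament of 3 different chains, had its main chains in fibroblasts. *Col6a1* (0.693 in female and 0.518 in male nuclei) and *Col6a3* (0.915 and 0.560) were called to fibroblast kinds, 2.92-fold and 3.75-fold above the next group for *Col6a1* and 2.34-fold and 2.08-fold for *Col6a3*. *Col6a2* had 0.570 and 0.492 in fibroblast kinds, and missed the call. By class *Col6a3* was highest in epineurial fibroblast-like nuclei, with 2.79 and 1.66, and *Col6a2* there too, with 0.992 and 1.14. *Col6a1* reached 1.23 in female *Slc47a1*-high nuclei but 0.641 in male ones, and its 2 highest classes over both libraries, *Slc47a1*-high and endoneurial fibroblast-like, did not differ beyond counting error (0.06 on the log2 scale, -0.44 to 0.57). In neuron-like nuclei the 3 genes had 0.0300, 0.131 and 0.0517 in the order *Col6a1*, *Col6a2* and *Col6a3*. *Col6a6*, an alternative chain, was called to vessels on 10 and 20 UMIs and was at 0.336 and 0.398 in *Adgrl4*-high endothelial cell-like nuclei, with no UMI in the other 2 vessel classes. In the female library, however, its highest class was the epineurial fibroblast-like one. Over both libraries that class had 0.260 and did not differ from the *Adgrl4*-high one beyond counting error (0.53 on the log2 scale, -0.63 to 1.87).

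*Col28a1*, a short collagen related to type VI and known from peripheral glia, had the most UMIs of all collagens in both satellite glia-like classes, in each library. Per kilobase it was not the first in *Ptprz1*-high nuclei, with a level of 0.0306 per kb, after *Col5a3* with 0.0385 and *Col1a2* with 0.0342, and was not among the first 3 in *Fabp7*-high ones. It had 5.74 in the 237 female and 6.24 in the 193 male *Ptprz1*-high satellite glia-like nuclei, 2.54 and 2.99 in *Fabp7*-high ones, 2.81 and 2.43 in *Cdh19*-high glia and 0.712 and 0.676 in *Sptbn5*-high Schwann cell-like nuclei. The 2 libraries thus gave *Col28a1* one order of these classes but for the second and the third place, and over both libraries the first class exceeded the second by 1.03 on the log2 scale (0.88 to 1.18). As a group the glia had 2.77 and 2.57, 7.89-fold and 11.6-fold above the next group. Over both libraries barrier fibroblast-like nuclei had its lowest level, 0.0782. After thinning, 38.4% of *Ptprz1*-high satellite glia-like nuclei held a *Col28a1* UMI (33.8% to 43.1%), against 1.82% of macrophage-like and 1.93% of neuron-like nuclei, and before thinning 71.9%, 4.36% and 11.4%. The median depths were 3034.5, 1802 and 6651 UMIs. The 250 bases before the start of *Col28a1* (chr6:8192618-8192867, minus strand) are shown because the gene had by far its highest levels in glia, and the capitals mark the letters ACAAAG, a core that Sox factors bind.
Col28a1: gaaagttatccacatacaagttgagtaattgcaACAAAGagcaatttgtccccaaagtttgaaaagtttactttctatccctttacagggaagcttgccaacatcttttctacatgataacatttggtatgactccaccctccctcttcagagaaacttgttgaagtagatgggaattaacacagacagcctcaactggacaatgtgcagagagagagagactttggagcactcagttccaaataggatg

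*Col25a1* and *Col8a1* held most of the collagen UMIs of the *Slc47a1*-high nuclei. *Col25a1* encodes a membrane-bound collagen known from neurons and muscle, and *Col8a1* a short chain that forms hexagonal lattices. *Col25a1* had 32.5 in the 158 female and 24.2 in the 357 male *Slc47a1*-high nuclei, and 12.4 and 9.76 in *Prg4*-high barrier fibroblast-like nuclei. No other compared class exceeded 1.71 in either library. *Col25a1* made up 45.4% and *Col8a1* 24.4% of the collagen UMIs of *Slc47a1*-high nuclei, although *Col25a1* is also the longest of the 44 genes (468 kb). Per kilobase and over both libraries, *Col8a1* led there with 0.112, before *Col1a2* with 0.0730 and *Col1a1* with 0.0605. *Col25a1* was not among these first 3. The 2 clusters that were joined in this class had *Col25a1* at 23.8 (336 nuclei) and 31.4 (179 nuclei) and *Col8a1* at 12.3 and 17.5. After thinning, 58.3% of *Slc47a1*-high nuclei held a *Col25a1* UMI (53.9% to 62.5%), against 2.17% of neuron-like and 1.82% of macrophage-like nuclei. Before thinning the shares were 64.9%, 10.2% and 5.09%, at median depths of 2497, 6651 and 1802 UMIs.

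*Col8a1* was not held by that class alone. It had 19.1 in female and 12.1 in male *Slc47a1*-high nuclei, 7.66 and 7.56 in epineurial fibroblast-like, 8.32 and 5.45 in perineurial cell-like and 5.39 and 5.89 in endoneurial fibroblast-like nuclei. In *Eln*-high endothelial cell-like nuclei it had 5.53 and 3.43, 2.38-fold and 2.08-fold above the next vessel class. Barrier fibroblast-like nuclei had 1.56 and 0.766, and *Prg4*-high ones 0.695 and 1.04. The 2 genes thus shared a highest class but little else, with a Pearson r of 0.38 and a Spearman rho of 0.39 over the 17 classes. *Col8a2*, the partner chain, was called to fibroblast kinds, with 0.255 and 0.228, and had 0.636 and 0.588 in *Slc47a1*-high nuclei. The stretches of 250 bases before the annotated starts of *Col25a1* (chr3:130180595-130180844, plus strand) and *Col8a1* (chr16:57754738-57754987, minus strand) are shown because the 2 genes peaked in one class, and capitals mark CCAAT or GGGCGG on either strand. The RefSeq start used for *Col25a1* lies inside the gene as GENCODE draws it (chr3:130131501-130599877).
Col25a1: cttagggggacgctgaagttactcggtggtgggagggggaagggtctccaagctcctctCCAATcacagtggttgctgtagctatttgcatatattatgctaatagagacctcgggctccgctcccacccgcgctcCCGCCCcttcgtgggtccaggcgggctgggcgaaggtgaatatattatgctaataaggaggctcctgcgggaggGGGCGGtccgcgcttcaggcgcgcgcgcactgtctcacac
Col8a1: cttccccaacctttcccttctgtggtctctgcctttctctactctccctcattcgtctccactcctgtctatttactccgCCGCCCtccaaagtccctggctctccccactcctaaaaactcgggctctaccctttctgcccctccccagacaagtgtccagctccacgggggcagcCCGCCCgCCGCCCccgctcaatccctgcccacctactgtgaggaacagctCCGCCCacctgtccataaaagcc

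The RefSeq promoter table held 35 of the 44 collagen genes. Over the 250 bases before the start, on both strands, GGGCGG was found in 21 of these (60%) and in 32.9% of all 27025 promoters of that length, CCAAT in 12 (34.3%) and in 34.5%, TATAAA in 5 (14.3%) and in 13%, ACAAAG in 4 (11.4%) and in 16.5%, TGACTCA in 1 (2.86%) and in 4.43%, and CACGTG in none and in 6.05%. These are matches of letters, not sites. Those of *Col4a1* and *Col4a2* are not independent, since their windows overlap.

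The other transmembrane collagen with many UMIs, *Col23a1*, was high in 2 unlike classes. It had 3.14 and 3.50 in *Sptbn5*-high Schwann cell-like nuclei, 2.28-fold and 4.06-fold above the next glia, and 3.71 and 2.59 in *Prg4*-high barrier fibroblast-like nuclei, 2.22-fold and 2.02-fold above the next fibroblast kind. These 2 classes did not differ beyond counting error over both libraries (0.12 on the log2 scale, -0.20 to 0.45). In neuron-like nuclei *Col23a1* had 0.109 and in macrophage-like nuclei 0.105.

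The multiplexins, whose ends can be cut off as angiogenesis inhibitors, were called to different groups, *Col15a1* to fibroblast kinds and *Col18a1* to vessels. *Col15a1* had 10.9 in the 124 female and 7.20 in the 171 male endoneurial fibroblast-like nuclei, 19.3-fold and 23.2-fold above the next fibroblast kind. It had 0.567 and 0.311 in epineurial fibroblast-like and 0.0756 over both libraries in *Slc47a1*-high nuclei, and the next class of all over both libraries was the *Cdh19*-high glia, with 0.778 and 1.64. In the female library the *Ptprz1*-high satellite glia-like nuclei were above these, with 0.864 (0.565 in the male). After thinning, 52.9% of endoneurial fibroblast-like nuclei held a *Col15a1* UMI (47.0% to 58.7%), against 1.36% of epineurial ones and 1.46% of macrophage-like nuclei, and before thinning 66.4%, 6.08% and 3.27% (median depths 1846, 2006.5 and 1802 UMIs). *Col15a1* and *Col14a1* thus parted the endoneurial from the epineurial class, in both libraries and in opposite directions. *Col18a1* was called to vessels, with 0.730 and 0.608, 2.12-fold and 2.82-fold above the fibroblast kinds, and had 1.71 and 0.731 in mural cell-like, 0.572 and 0.959 in *Eln*-high and 0.572 and 0.537 in *Adgrl4*-high endothelial cell-like nuclei. Barrier fibroblast-like nuclei had 0.682 and 0.480 of it, above both endothelial classes in the female library. The mural cell-like levels rest on 14 and 6 UMIs. Over both libraries they did not differ from the *Eln*-high ones beyond counting error (0.86 on the log2 scale, -0.12 to 1.85). *Col26a1*, which belongs to none of these families, had 1.95 and 1.23 in endoneurial and 1.92 and 1.21 in barrier fibroblast-like nuclei, which did not differ beyond counting error (0.02 on the log2 scale, -0.35 to 0.38).

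Within the fibroblast kinds, 4 collagens were called to barrier fibroblast-like nuclei (*Col4a5*, *Col4a6*, *Col9a2* and *Col22a1*), where 0.545% of all genes were, and 1 each to *Slc47a1*-high (*Col25a1*, against 0.350% of genes), endoneurial (*Col15a1*, 0.280%), epineurial (*Col14a1*, 0.142%) and *Prg4*-high nuclei (*Col23a1*, 0.238%). Perineurial cell-like nuclei had none, against 0.211%. Within the vessels, *Eln*-high endothelial cell-like nuclei had 3 (*Col4a4*, *Col5a2* and *Col8a1*), against 0.396% of genes, mural cell-like nuclei 1 (*Col3a1*, 0.599%) and *Adgrl4*-high ones 1 (*Col6a6*, 0.672%). Within the glia, *Sptbn5*-high Schwann cell-like nuclei had 2 (*Col23a1* and *Col24a1*), against 0.415%, and *Ptprz1*-high satellite glia-like nuclei 1 (*Col28a1*, 0.392%). The other glia had none, and few genes of any kind were called to them (0.0230%, 0.0307% and 0.00768%).

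In the neurons, *Col6a5* was the one collagen called. *Col6a5* encodes an alternative chain of type VI collagen and had 0.266 in the 788 female and 0.246 in the 1705 male neuron-like nuclei, 2.08-fold above the fibroblast kinds in the female and 4.36-fold above the glia in the male library. It varied among the 5 neuron clusters, with 0.449 (0.401 to 0.502) and 0.376 (0.330 to 0.427) in the 2 highest and 0.0764 (0.0610 to 0.0946) in the lowest. By class, epineurial fibroblast-like nuclei (0.260, 8 UMIs) and perineurial cell-like nuclei (0.240, 30 UMIs) had similar levels. In the cluster with the highest level, which holds 509 nuclei, the list of pituitary markers scored above that of neurons, and without this cluster *Col6a5* was no longer called. The call was also lost when collagens were kept in the clustering, when genes were scaled within each library before it, when levels were a mean over nuclei, when *Slc47a1*-high nuclei were left out or made a group of their own, and at a fold of 3. *Col24a1* had 1445 UMIs in neuron-like nuclei, with 0.835 per 10000 in the highest of the 5 clusters and 0.607 in the next, and *Col5a3* 1366 UMIs, with 0.640 and 0.466. Of the 44 collagens, 10 had their lowest level of all classes in neuron-like nuclei. Adipocyte-like nuclei were also taken as lowest for 10, all without a UMI there, and macrophage-like nuclei for 7. Where several classes had no UMI, the class listed last was taken, and adipocyte-like nuclei were listed last. Their count therefore depends on that order, as for *Col6a6*, which had no UMI in 2 vessel classes either. These counts have no share of all genes beside them.

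The 11 collagens with under 300 UMIs that were called to no group had 30 to 276 UMIs over both libraries, and their highest level in any compared class ran from 0.0325 to 0.639. They include all 3 chains of type IX collagen and the type II and type X collagens known from cartilage, and their levels rest on few UMIs in most classes. One of them, *Col9a2*, had 0.363 in female and 0.480 in male barrier fibroblast-like nuclei. The other 33 had 78 to 5825 UMIs and are described above.

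Of 54 genes in 7 lists of those that make, process, bind and cleave collagen, 10 were called to fibroblast kinds, 2 to macrophage-like nuclei and none to vessels, glia, neurons or adipocytes. Of all genes, 1.26% were called to fibroblast kinds and 1.32% to macrophage-like nuclei. Unlike the collagens, these lists were not left out of the clustering as a set, so their genes could help to define the classes. *Dcn*, *Lum* and *Pcolce2* were also among the markers used to name classes. These counts are therefore not independent of the classes. Of the 8 genes that remove propeptides, 3 were called to fibroblast kinds. These were *Adamts2*, with 2.88 in female and 2.49 in male epineurial fibroblast-like nuclei, and *Adamts14* (0.780 and 0.592) and *Bmp1* (1.70 and 1.43), both highest in perineurial cell-like nuclei. Of the 9 receptors, 4 were. The collagen receptor *Ddr2* had 4.96 and 1.97 in epineurial fibroblast-like nuclei, the integrin chains *Itga11* 1.32 and 1.04 there and *Itga10* 2.86 and 2.44 in *Prg4*-high nuclei, and the uptake receptor *Mrc2* 6.24 and 4.57 in *Slc47a1*-high nuclei. *Lair1*, an inhibitory collagen receptor of immune cells, was called to macrophage-like nuclei, with 2.78 and 2.28. Of the 7 fibril-binding proteoglycans, *Dcn* (40.7 and 28.2 in endoneurial fibroblast-like nuclei) and *Fmod* (1.0 and 1.05 in barrier fibroblast-like nuclei) were called to fibroblast kinds, and of the 6 proteases the collagenase *Mmp13* was, with 1.23 and 4.04 in epineurial fibroblast-like nuclei. None of the 7 genes of glycosylation, folding and export or the 5 cross-linking oxidases was called to any group, and of the 12 hydroxylases *P3h2* was called, to macrophage-like nuclei. By class, however, the level of *P3h2* was higher in *Sptbn5*-high Schwann cell-like nuclei (2.52 over both libraries) than in macrophage-like ones (2.44).

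Collagen levels were lower in the male than in the female library in 16 of the 17 classes, and the interval of the log2 ratio lay below 0 in 14. The summed level was 75.1 in female and 51.4 in male *Slc47a1*-high nuclei, 56.5 and 42.4 in endoneurial and 65.6 and 48.0 in epineurial fibroblast-like nuclei, and 6.53 and 4.71 in neuron-like nuclei. *Sptbn5*-high Schwann cell-like nuclei had 27.1 and 27.5, *Cdh19*-high glia 26.8 and 26.0 and macrophage-like nuclei 6.72 and 6.60, and in these 3 the interval held 0. By group the log2 ratio of male to female was -0.40 in fibroblast kinds (-0.44 to -0.36), -0.57 in vessels (-0.69 to -0.44), -0.32 in glia (-0.37 to -0.28) and -0.47 in neurons (-0.52 to -0.42). No single class of glia or vessels had a ratio as low as its group. The ratios ran from -0.26 to 0.02 in classes of glia and from -0.51 to -0.23 in vessel classes. The mix of classes also differed. *Fabp7*-high satellite glia-like nuclei made up 1.58% of female and 11.4% of male nuclei, and *Cdh19*-high glia 7.07% and 1.36%. The part of this mix in the group ratios was not tested. Of the members with at least 20 UMIs in the group, 32 of 35 were lower in the male library in fibroblast kinds (53.8% of all genes were), 31 of 35 in glia (51.7%), 18 of 25 in vessels (48.5%) and 34 of 40 in neurons (50.6%). The median log2 ratio of the members was -0.42, -0.29, -0.35 and -0.61 in the same order, beside -0.05, -0.02, 0.02 and -0.01 over all genes. Markers of neurons differed the other way. The summed level of 12 neuron markers was 24.7 in female and 56.2 in male nuclei in fibroblast kinds, 28.4 and 58.3 in vessels and 34.6 and 63.3 in glia, and was higher in the male library in all 16 classes that are not neurons. In neuron-like nuclei it was 62.5 and 79.4. The part of neuronal RNA in the collagen difference was not tested. Sex, the dissection of each pool and the library cannot be told apart.

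**Figure D4:**
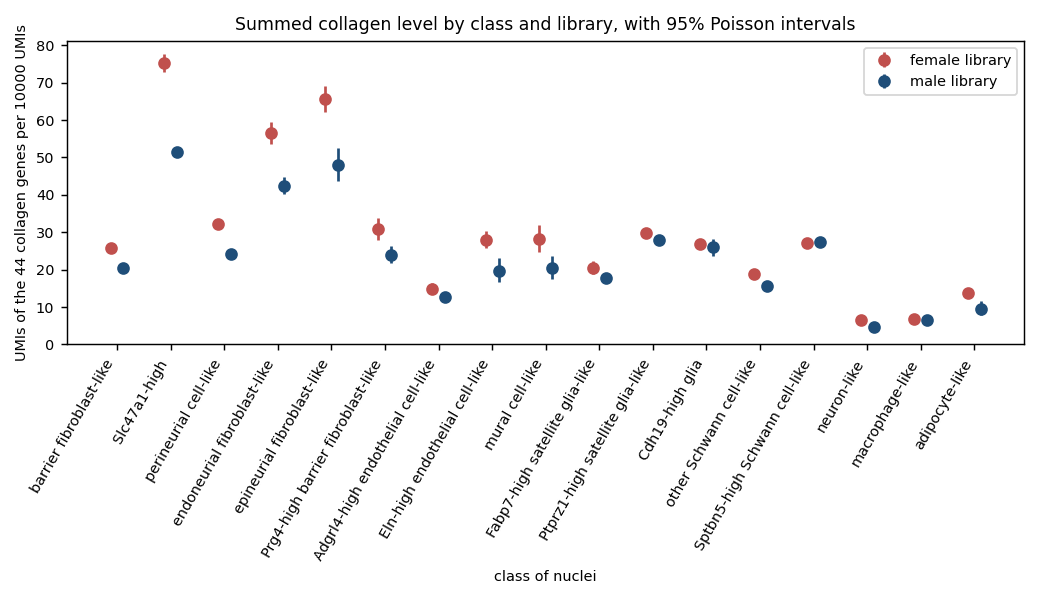
UMIs of the 44 collagen genes per 10000 UMIs in each of the 17 classes, in the female (red) and male (blue) library, with 95% Poisson intervals as bars and the axis from 0. The female point is the higher one in 16 classes, by most in *Slc47a1*-high nuclei (75.1 against 51.4), while *Sptbn5*-high Schwann cell-like nuclei have 27.1 and 27.5.

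Of single collagens in the 6 groups, 18 pairs of a gene and a group differed at least 2-fold between the libraries, 17 of them lower in the male. Only genes with at least 20 UMIs in the group could be counted. The counts below are out of collagens and genes with that many. The shares of all genes are out of 26032, and genes with too few UMIs to be counted lower them. In fibroblast kinds *Col5a1* had 1.08 in female and 0.515 in male nuclei (log2 ratio -1.06, -1.36 to -0.77) and *Col14a1* 0.953 and 0.354 (-1.43, -1.77 to -1.09), with *Col6a5* and *Col6a6* on fewer UMIs. These were 4 of 35 collagens, where 389 of 13579 genes were as much lower in the male library. The class with the highest level of *Col14a1*, the epineurial one, held 2.72% of female and 0.914% of male nuclei. In vessels 4 of 25 collagens were lower in the male library, against 430 of 9235 genes (1.65% of all genes). *Col5a2* had 4.45 and 1.49 there (-1.58, -1.93 to -1.24) and *Col4a4* 0.985 and 0.456, and the others were *Col6a2* and *Col23a1*. *Eln*-high endothelial cell-like nuclei, the highest class of *Col5a2* and *Col4a4*, held 2.14% of female and 0.427% of male nuclei. In the neurons 7 of 40 collagens were lower in the male library, against 488 of 17734 genes (1.87% of all genes). Among the 7 were *Col8a1*, with 0.436 and 0.170, *Col12a1*, with 0.104 and 0.0406, and *Col4a3*, with 0.114 and 0.0406. In the glia it was 1 of 35 (*Col9a3*), against 322 of 14206 genes (1.24% of all genes). In adipocyte-like nuclei it was 1 of 7, *Col3a1*, with 51 female and 3 male UMIs, against 425 of 5106 genes (1.63% of all genes). *Col25a1* in vessels, on 6 and 21 UMIs, was the one higher in the male library (0.102 and 0.319), where 663 of 9235 genes were. In macrophage-like nuclei none of the 5 collagens that could be counted differed that much. Of 6235 genes, 584 were higher in the male library there (2.24% of all genes) and 313 in the female (1.20%).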

How the data were processed

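The authors made the deposited counts with Cell Ranger 7.1.0 on mm10, introns included, from 10x nuclear libraries, kept barcodes by a DIEM debris score under 0.5, over 250 genes and over 1000 UMIs, and joined both libraries with normalization for mapped reads, so that the UMI counts are not all those sequenced. The fewest UMIs in a nucleus were 980. Neither the annotation release, nor use of strand, nor how reads shared by overlapping genes were assigned is stated, so such genes are uncertain. The library number of each barcode was matched to a sex because the numbers of nuclei equal those the study states. No doublet caller was run, since the study states that possible doublets were removed.

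Counts were clustered in Python 3.11.15 (scikit-learn 1.9.0, igraph 0.11.9): log2 scaled UMIs, genes in at least 3 nuclei, 10 components, 243 neighbours and Louvain clustering, without the collagens and 120 genes that are sex-linked or were chosen for differing between the libraries. The 2839 stromal nuclei were clustered again (20 components, 20 neighbours), with settings chosen after the data were seen. A marker passed at 1.5-fold over the median of the clusters, with 0.05 added, and 10 UMIs. In the neuron-like class, a list of pituitary cells or of non-myelinating Schwann cells scored above that of neurons in 3 of 5 clusters, and 1 was led by sympathetic neuron markers. One compared class, drawn as other Schwann cell-like, is not reported by itself here. Classes not compared were granule cell-like (475 nuclei), skeletal muscle-like (19) and mixed (111). Shares carry Clopper-Pearson intervals after thinning to 1000 UMIs, and a share of 0 an upper limit of 3 counts. The call rule was only tried on simulated counts with Poisson noise and planted changes larger than the fold of a call. That setting was simpler than these data. Genes with at least 300 UMIs or a call are named with values, others by counts, with the calls within a group, promoters and library pairs named as they arose. Members, marker and pathway lists were chosen with earlier results of these data known. Alternatives included edgeR 4.0.16 TMM scaling. Gene coordinates are from GENCODE M21 and promoters from RefSeq on GRCm38.p6, the build of mm10.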

Additional observations from a re-analysis of the deposited data

Results flagged for a closer look

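A pair of collagens differed between the libraries in opposite directions in different classes. *Col8a1* had a log2 ratio of male to female of 1.45 in *Cdh19*-high glia (0.611 to 2.295, on 26 female and 26 male UMIs). In mural cell-like nuclei it was -1.45 (-2.94 to -0.1345, on 19 and 7 UMIs). *Col25a1* had 1.19 in *Ptprz1*-high (0.7235 to 1.661, on 60 and 115 UMIs) and -1.92 in *Fabp7*-high satellite glia-like nuclei (-2.493 to -1.339, on 43 and 69 UMIs). Each ratio compares 1 library with 1 library, and the difference between the classes was not tested.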

How the results depend on the processing

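The counts of collagens called to fibroblast kinds, vessels, glia and neurons were 10, 2, 3 and 1, and 18 pairs of a gene and a group differed at least 2-fold between libraries. At a fold of 3 these were 4, 1, 1 and 0 calls and 2 pairs, and at a fold of 1.5 there were 56 pairs. Without the filter on low counts there were 61 pairs. Other clusterings gave 28 pairs (collagens kept in) and 29 pairs (genes scaled within each library), and 0 calls to neurons in both. A mean over nuclei gave 31 pairs and 0 calls to neurons. Nuclei of over 2000 UMIs gave 1 call to vessels. Alternatives chosen after seeing the data gave 1 call to vessels and 0 to neurons without *Slc47a1*-high nuclei, 4 to fibroblast kinds, 1 to vessels and 0 to neurons with these as a group of their own, 6 to fibroblast kinds and 1 to vessels with each class of a group counted the same, and 0 to neurons without the neuron cluster of the highest *Col6a5* level. The cause was not tested. Of 230 levels under alternatives, 193 stayed within the counting interval and 37 moved. No paired analysis was possible because each sex had 1 library. Depth limits every collagen with 276 UMIs or fewer, among them *Col6a6*, *Col8a2* and *Col22a1*, which were called to a group.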
